A study of Mus musculus with 16 samples.

Results

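Adenoma cells from the small intestine of mice heterozygous for the Apc 1638N allele were profiled on 6 microarrays of 4 animals, and the sample titles set 3 of these arrays apart by the tag T2. The T2 adenomas came from animals P21 (2 arrays, technical repeats) and P23 (1 array), and the other adenomas from animals P34 (2 arrays, technical repeats) and P36 (1 array). Members were chosen by title alone, the repeats were averaged, and this left 2 animals against 2, out of 16 arrays in the whole series. The source labels of these arrays give n=3 where the series design gives 4 mice and 6 samples, and the animal codes in the titles were taken as 4 animals. The labels do not say what T2 stands for. All 4 animals were C57Bl/6 males of 8 to 10 weeks with 1 wild-type and 1 mutant copy of Apc, a germline allele, and the labels name no transgene or Cre. How the adenoma cells were obtained, whether they were cultured, and how many adenomas each sample held are not given in the labels.

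The remaining 10 arrays held wild-type crypt organoids from animals P28 and P30, grown alone or beside myofibroblasts, and wild-type intestinal myofibroblasts of animals Pl_I, Pl_II and Pl_III, grown alone or beside organoids. These mice were also 8 to 10 weeks old, and cultures were kept for 24 h. They lent their spread to the test, and the organoids grown alone are given below as a reference level. All values are log2 levels after RMA, a method that corrects background and equalises the distribution of values between arrays, so a difference of 1 is 2-fold. The median of an array was 3.48 to 3.57, and precision is limited by 2 animals a group. Of 22180 genes measured by a probe set with 1 symbol, 18223 passed a filter on dim genes and were tested.

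Apc is a scaffold of the complex that marks beta-catenin for destruction. When both copies fail, beta-catenin stays in the nucleus and keeps Wnt target genes on, among them feedback inhibitors such as Axin2. In the healthy small intestine the same signal maintains Lgr5 stem cells and Paneth cells at the crypt base. Atoh1 directs cells to the secretory fate (goblet, Paneth and enteroendocrine cells), Notch signalling opposes it, and Cdx2 holds the intestinal rather than the gastric programme.

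The T2 adenomas expressed leading Paneth and goblet cell genes that were at or near the floor of the array (levels of about 2 to 4) in the other adenomas, and the other adenomas expressed leading genes of gastric surface cells that were low in the T2 adenomas. Lysozyme (Lyz1), alpha-defensins, Muc2 and Atoh1 were higher in T2, and Muc1, Cldn18, Muc5ac, Tff1 and Sox2 were lower. Markers of stromal and immune cells were near the floor in all 4 animals, and genes of DNA replication and mitosis were high in all 4.

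By limma with a mean for each of 6 groups and Benjamini-Hochberg adjustment, 1297 of 18223 genes (7.12%) differed at an adjusted p under 0.05. Of these, 663 (3.64% of genes tested) were higher in T2 adenomas and 634 (3.48%) were lower. At least 2-fold differences were found for 442 genes higher and 408 lower, at least 16-fold for 46 and 32, and at least 64-fold for 11 and 7. The count depended on each animal: 719 genes passed without P21, 685 without P23, 838 without P34 and 702 without P36.

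**Figure D1:**
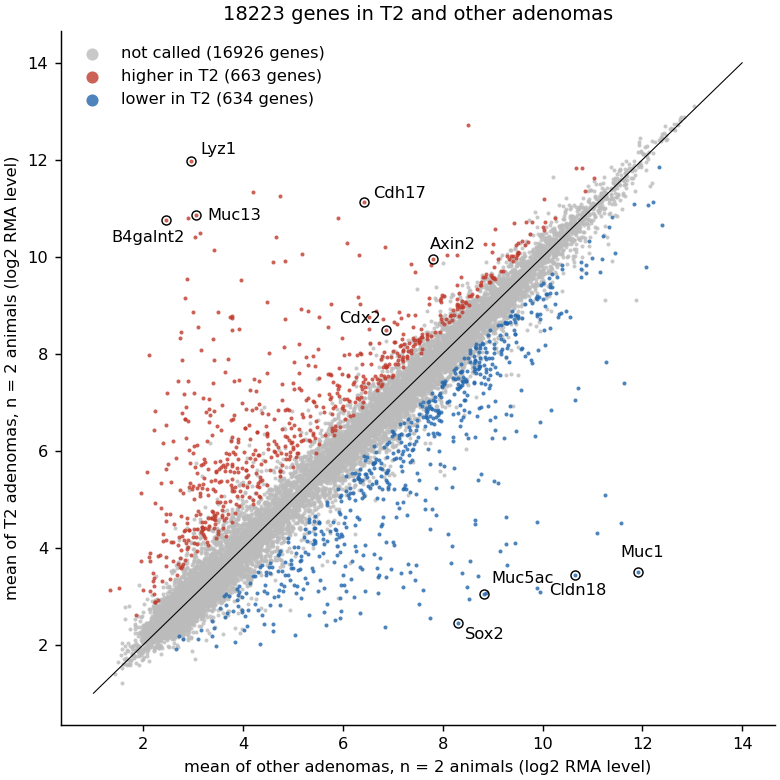
Mean log2 RMA level of each of 18223 genes in the T2 adenomas (vertical axis, n = 2 animals) against the other adenomas (horizontal axis, n = 2 animals), with 663 genes called higher in T2 in red, 634 called lower in blue and the line of equality drawn. Lyz1, B4galnt2, Muc13 and Cdh17 lie far above the line and Muc1, Cldn18, Muc5ac and Sox2 far below it.

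The 2 animals of a group were very alike. Between single arrays, the SD over genes of the difference was 0.308 and 0.338 for P21 and P23 and 0.344 for both pairings of P34 and P36, against 0.282 and 0.280 between the technical repeats of P21 and of P34. More than 2-fold differences were found for 153 to 251 genes between these animals and for 101 and 104 genes between repeats. Wild-type organoids of different animals differed by 0.411, and myofibroblasts grown alone of different animals by 0.415, 0.589 and 0.631. Adenoma animals of different groups (repeats averaged) differed by 0.651 to 0.698. More than 2-fold differences were found for 544 to 1417 genes between these myofibroblasts and for 1111 to 1345 between adenoma groups. Animals within an adenoma group thus differed more than repeat arrays, but less than the organoids or myofibroblasts of different animals did. The p-values that count these adenoma animals as independent may be too small. When each adenoma group was entered as 1 sample, with the spread taken from the organoid and myofibroblast groups alone, 213 genes were higher and 195 lower, and 406 of these 408 were among the 1297.

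Some genes behaved as a switch, with both animals of a group above a level of 7 and both of the other group below 4. This held for 30 genes in the direction of T2 (0.165% of genes tested) and for 21 genes in the direction of the other adenomas (0.115%). Of the 30 genes, 25 were above 7 in wild-type organoids grown alone and 3 were below 4. Of the 21 genes, 1 was above 7 in those organoids and 16 were below 4, against 31.7% above 7 and 39.7% below 4 among all genes tested. The genes present in T2 adenomas alone were thus mostly genes of wild-type epithelium, and those present in the other adenomas alone were mostly genes that wild-type epithelium lacked. The levels chose these genes, so the counts are a description.

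**Figure D2:**
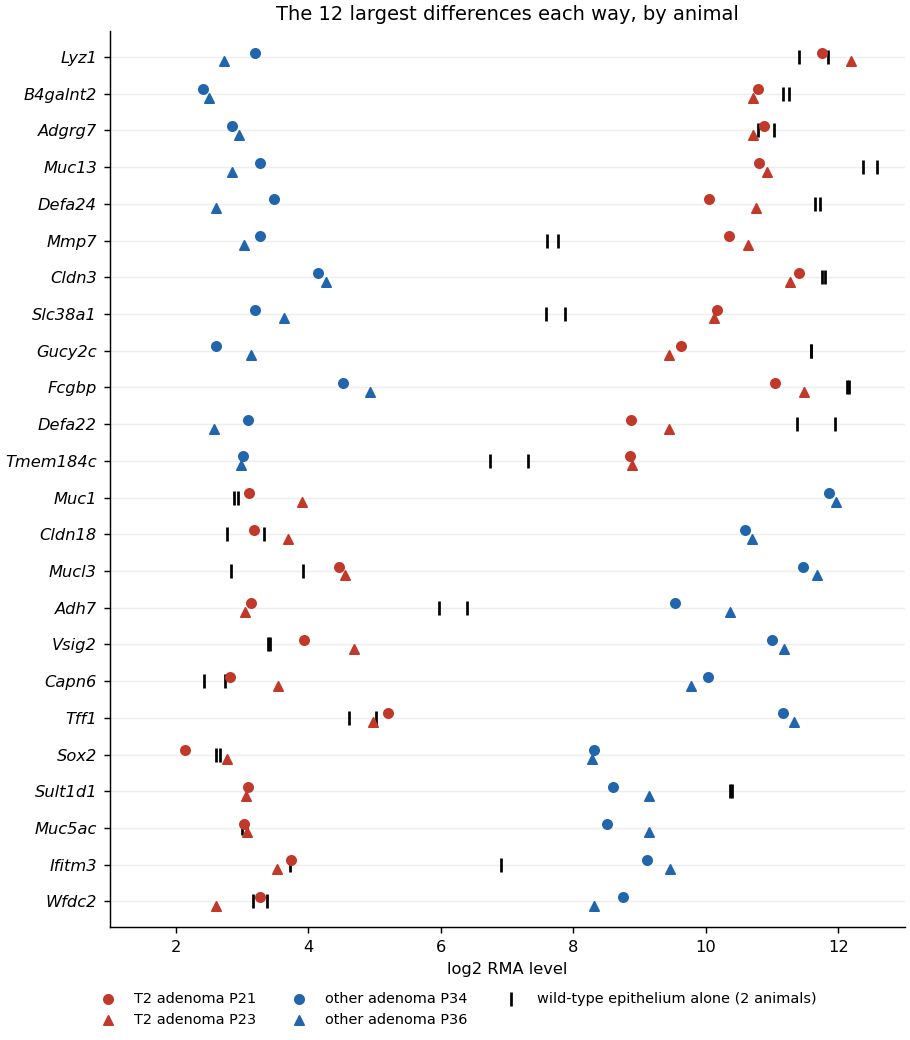
Log2 RMA level of the 12 genes with the largest differences in each direction, by animal (red for T2 adenomas, blue for other adenomas, circles and triangles for the first and second animal of a group) and in wild-type organoids grown alone (black bars, 2 animals). The 24 genes were chosen for the size of their difference among called genes. That the groups do not overlap for them follows from this choice and is no further result.

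The largest difference of all genes was that of Lyz1, the lysozyme of Paneth cell granules. Its level was 11.75 in P21 and 12.20 in P23, against 3.20 in P34 and 2.72 in P36. The T2 animals were thus close to wild-type organoids (11.41 and 11.84) while the others lay at the floor, a difference of 9.02 ± 0.22 (SE, limma adjusted p = 2.98e-09). For Muc1, a membrane mucin of stomach and other glandular surfaces, the levels were 3.10 and 3.91 in T2 against 11.86 and 11.97 in the other adenomas. Wild-type organoids had 2.93 and 2.88, so the other adenomas stood apart from both, by -8.41 ± 0.45 from T2 (adjusted p = 3.97e-07).

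The 250 bases before the annotated start of these genes are shown because they carry the largest difference in each direction. Of the 24 genes with the largest differences 18 had an entry in the RefSeq promoter table, and Muc13 and Sult1d1 are added as the 2 of these with the core letters of a CDX site, TTTATG on either strand, printed in capitals. Positions are GRCm38.p6 of RefSeq, for Lyz1 chr10:117292869-117293118 (minus strand), for Muc1 chr3:89228806-89229055 (plus), for Muc13 chr16:33793787-33794036 (plus, 1 of its 2 windows) and for Sult1d1 chr5:87569007-87569256 (minus).
Lyz1: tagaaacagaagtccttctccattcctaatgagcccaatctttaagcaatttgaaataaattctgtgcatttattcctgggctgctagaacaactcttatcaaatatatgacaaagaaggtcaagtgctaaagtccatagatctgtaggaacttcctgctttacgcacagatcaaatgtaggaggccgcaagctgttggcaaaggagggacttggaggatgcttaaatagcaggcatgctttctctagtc
Muc1: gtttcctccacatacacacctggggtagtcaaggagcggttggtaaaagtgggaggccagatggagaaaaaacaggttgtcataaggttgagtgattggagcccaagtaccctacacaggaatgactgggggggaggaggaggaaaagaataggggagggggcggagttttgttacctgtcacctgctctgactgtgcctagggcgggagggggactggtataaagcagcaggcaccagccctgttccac
Muc13: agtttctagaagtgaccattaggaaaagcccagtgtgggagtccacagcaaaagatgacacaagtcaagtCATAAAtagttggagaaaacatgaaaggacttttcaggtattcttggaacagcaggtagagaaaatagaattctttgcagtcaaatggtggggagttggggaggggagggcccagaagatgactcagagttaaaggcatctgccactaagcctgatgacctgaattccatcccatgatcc
Sult1d1: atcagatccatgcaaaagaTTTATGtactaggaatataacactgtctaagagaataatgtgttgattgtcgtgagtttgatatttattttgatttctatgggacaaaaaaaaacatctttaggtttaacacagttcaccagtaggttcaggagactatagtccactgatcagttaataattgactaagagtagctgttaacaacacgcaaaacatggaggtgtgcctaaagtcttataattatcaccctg
The 6 letters lay 180 bases before the start of Muc13, which was higher in T2, and 231 bases before that of Sult1d1, which was lower. They occurred in 8.83% of 657 windows of genes called higher, in 5.3% of 660 windows of genes called lower, in 7.46% of 16107 windows of genes tested and not called, and in 10.8% of all 32851 windows of this length in the table. Median GC content was 57.6%, 59.6%, 57.6% and 52.4% in these sets. A match of these letters is not a binding site, and binding was not measured.

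Paneth cell genes were the first group higher in T2 adenomas. Paneth cells sit at the crypt base and release antimicrobial peptides. Of 16 tested members 10 were higher (62.5%, against 3.64% of all genes) and 1 was lower (6.25%, against 3.48%). The median difference was 1.73, against a median of -0.0028 over all genes. The mean level over the list was 7.34 in P21 and 7.65 in P23, against 4.56 in P34, 4.46 in P36 and 8.84 in wild-type organoids. With each adenoma group as 1 sample 8 were higher and 1 lower. In bulk samples fewer cells of a type and less RNA per cell cannot be told apart, here and for every cell type below.

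The alpha-defensins are the main antimicrobial peptides of Paneth granules. Defa24 had levels of 10.05 in P21 and 10.75 in P23, against 3.48 in P34 and 2.60 in P36. Defa24 was thus expressed in both T2 animals and at the floor in both others, a difference of 7.36 ± 0.35 (adjusted p = 1.71e-07). Defa22 followed the same order with 8.87 and 9.44 against 3.09 and 2.58 (6.32 ± 0.38, adjusted p = 1.1e-06), and Defa21 with 8.47 and 9.07 against 3.87 and 3.69. Defensin genes are near-identical copies, so the level of one cannot be told apart from that of its relatives. Wild-type organoids had Defa21, Defa22 and Defa24 at 11.4 to 11.7, above both T2 animals.

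Mmp7, the protease that activates alpha-defensins and is itself a Wnt target, had 10.35 and 10.63 in T2 against 3.26 and 3.03. T2 adenomas exceeded wild-type organoids (7.77 and 7.60) for this gene, and the difference between adenomas was 7.34 ± 0.26 (adjusted p = 1.81e-08). A second, dimmer probe set of Mmp7 differed by 1.06. Ang4, a microbicidal ribonuclease, had 5.02 and 6.42 against 2.58 and 2.39 (adjusted p = 0.000254), well below wild-type organoids (10.91 and 10.73). Itln1, a lectin that binds microbial sugars, was 3.77 higher (adjusted p = 0.000161). The lower member was Nupr1, a stress-response gene, at -1.72 ± 0.27. Among the 5 members that did not pass, Reg3g, an antimicrobial lectin, had 5.08 and 5.68 against 3.54 and 4.22 (adjusted p = 0.161) and Cd24a, a surface protein that is not restricted to Paneth cells, had 11.41 to 11.63 in all 4 animals. Lyz2, the macrophage lysozyme, differed by 1.52 ± 0.23, but it is a near copy of Lyz1 and its level in T2 was only 4.19 and 4.48.

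Goblet cells secrete the intestinal mucus. Of 16 tested goblet cell genes 11 were higher in T2 (68.75%, against 3.64% of all genes) and 2 were lower (12.5%, against 3.48%). Their median difference was 3.90. The list averaged 8.08 in P21 and 8.41 in P23, 5.24 in P34 and 5.87 in P36, and 9.18 in wild-type organoids. With each adenoma group as 1 sample 9 were higher and none was lower.

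Muc2, the gel-forming mucin of the intestine, had levels of 8.13 in P21 and 9.38 in P23, against 3.53 in P34 and 3.92 in P36. Both T2 animals lay between the other adenomas and wild-type organoids (11.68 and 11.71), and the difference was 5.03 ± 0.34 (adjusted p = 3.52e-06). Fcgbp, a mucus protein that is secreted with Muc2, differed by 6.53 ± 0.43 and Zg16, a lectin of the mucus layer, by 5.85 ± 0.30. Tff3, the trefoil peptide of goblet cells, had 9.75 and 10.07 against 4.80 and 4.87, near wild-type organoids (10.37 and 10.18) in T2 alone. Spink4, a protease inhibitor of goblet cells, and Klk1, a kallikrein, were higher in T2 but uneven in the other group. Spink4 was 4.77 in P34 and 7.05 in P36, and Klk1 was 3.61 and 6.77. Rep15 (-2.96 ± 0.43), a Rab15-binding protein, and Sytl2 (-1.85 ± 0.39), a granule trafficking protein, were lower in T2.

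The transcription factors above these cells split. Atoh1, the secretory fate determinant, had 7.89 and 7.85 in T2 against 3.29 and 3.56, a difference of 4.45 ± 0.13 (adjusted p = 5.42e-09), with wild-type organoids at 8.75 and 8.89. Gfi1, its target, was 1.06 ± 0.28 higher (adjusted p = 0.045). Spdef, which promotes goblet and Paneth maturation, had 6.40 and 6.08 against 5.92 and 6.71, with overlapping groups and a difference of -0.08 (adjusted p = 0.983). Among 23 Notch genes 3 were higher (13.04%, against 3.64% of all genes) and none was lower. The 3 were the ligand Dll4 (2.11 ± 0.26), the feedback gene Nrarp (1.09 ± 0.24) and Hes6 (0.93 ± 0.21). Of the 23, 1 passed with each adenoma group as 1 sample. Of 21 genes of enteroendocrine cells, the hormone-producing secretory lineage, 1 had an unadjusted p under 0.05 and passed in limma. It was Isl1, a homeobox gene, at -2.21 ± 0.28. A share of 4.76% lower is near the 3.48% of all genes.

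**Figure D3:**
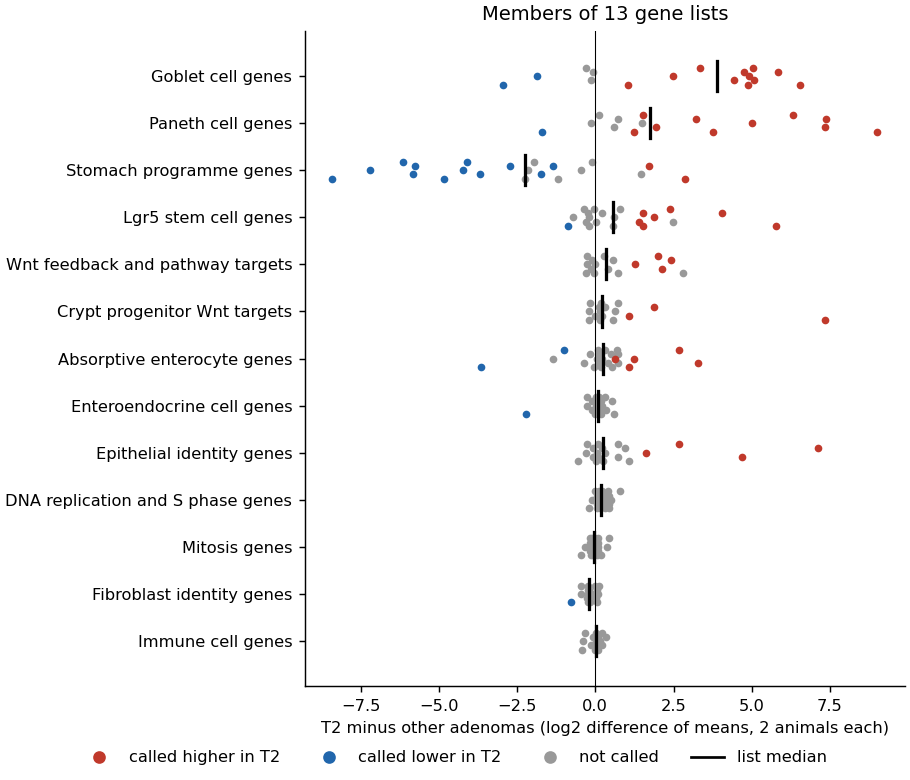
Differences in log2 RMA level (T2 minus other adenomas, means of 2 animals each) of all tested members of 13 gene lists, with called members in red (higher) or blue (lower), others in grey, and the list median as a black bar. Goblet cell genes (median 3.90) and Paneth cell genes (1.73) lie mostly right of 0, stomach genes (-2.23) mostly left, and cell cycle, fibroblast and immune genes close to 0.

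Stomach genes ran the other way. Of 21 tested members of the stomach list 12 were lower in T2 (57.1%, against 3.48% of all genes) and 2 were higher (9.52%, against 3.64%). Their median difference was -2.23. The list averaged 5.12 in P21 and 5.32 in P23, against 7.65 in P34 and 8.32 in P36, while wild-type organoids averaged 5.10. By this list average the T2 adenomas lay near the wild-type level and the other adenomas above it. Single members could depart from it, such as Anxa10, at 7.05 and 7.76 in T2 against 9.36 and 10.61 in wild-type organoids. With each adenoma group as 1 sample 11 were lower and 2 higher.

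Genes of gastric surface (foveolar) cells led this list. Cldn18, the tight junction claudin of the stomach, had 3.18 and 3.70 in T2 against 10.60 and 10.69, a difference of -7.20 ± 0.23 (adjusted p = 8.71e-09). Muc5ac, the gel-forming mucin of the gastric surface, had 3.03 and 3.07 against 8.51 and 9.14 (-5.78 ± 0.21, adjusted p = 2.15e-08). Tff1, the trefoil peptide secreted with Muc5ac, had 5.19 and 4.98 against 11.16 and 11.34 (-6.16 ± 0.17, adjusted p = 2.98e-09). In each case the 2 groups were far apart and wild-type organoids stood with T2. The gastrokines Gkn1 and Gkn2, small secreted proteins of the same cells, differed by -3.69 ± 0.26 and -4.83 ± 0.20. Muc2 and Muc5ac, the intestinal and gastric gel-forming mucins, thus took opposite places in the 2 kinds of adenoma.

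Sox2, the transcription factor of the foregut and stomach, had 2.14 in P21 and 2.77 in P23, against 8.32 in P34 and 8.28 in P36. It was at the floor in T2 and in wild-type organoids (2.60 and 2.66), a difference of -5.84 ± 0.21 (adjusted p = 1.98e-08). Nkx6-3, a homeobox gene of the gastric antrum that lies outside the lists and was picked after its values were seen, had 3.30 and 3.53 against 8.55 and 8.87. Cdx2, the factor that holds intestinal identity, went the other way with 8.52 and 8.46 against 7.04 and 6.67, a difference of 1.63 ± 0.17 (adjusted p = 0.000129). Wild-type organoids had Cdx2 at 9.49 and 9.29, above all 4 adenoma animals. Its relative Cdx1 was between 3.57 and 3.79 in all 4, against 8.28 in wild-type organoids.

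Gland cell genes of the stomach were present in P36 more than in P34. Pgc, the precursor of pepsin C, was 6.88 in P34 and 10.42 in P36 against 4.35 and 4.78 in T2 (-4.09 ± 0.81, adjusted p = 0.00929). Gif, now named Cblif and encoding gastric intrinsic factor, was 3.23 in P34 and 6.67 in P36 against 2.92 and 2.51, and did not pass (adjusted p = 0.126). Muc6, the gland mucin, was 4.46 and 6.70 against 3.64 and 3.64 (adjusted p = 0.0571). The surface cell genes were therefore shared by both animals, while these gland cell genes stood out in P36. The 2 stomach list members that were higher in T2 were Onecut2 (2.85 ± 0.37) and Capn9 (1.72 ± 0.28), and both are also found in intestinal epithelium: wild-type organoids had Onecut2 at 7.73 and 8.85 and Capn9 at 8.36 and 8.39.

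Other genes with large differences added to the same contrast. Higher in T2 were B4galnt2, a glycosyltransferase of the gut surface (10.78 and 10.72 against 2.41 and 2.50), Muc13, a membrane mucin of the intestine (10.80 and 10.92 against 3.26 and 2.85), and Gucy2c, the guanylin receptor of intestinal epithelium (9.63 and 9.44 against 2.60 and 3.13). All 3 were present in wild-type organoids, at 11.2 to 12.6. Lower in T2 were Mucl3 (-7.06 ± 0.32), Vsig2 (-6.78 ± 0.26), Adh7, an alcohol dehydrogenase that oxidises retinol (-6.86 ± 0.35), and Capn6 (-6.72 ± 0.27). Sult1d1, a sulfotransferase, was the exception among the 12 largest falls: its wild-type level exceeded both adenoma groups. It was 3.09 and 3.06 in T2 against 8.60 and 9.15, and 10.37 and 10.39 in wild-type organoids. Slc38a1, a glutamine transporter (10.17 and 10.13 against 3.19 and 3.64), and Tmem184c (8.85 and 8.88 against 3.01 and 2.98) were expressed in T2 above wild-type organoids. Ifitm3, an interferon-induced membrane protein, was lower in T2 (-5.65 ± 1.06, adjusted p = 0.0068), but its level in wild-type organoids was 3.72 in one animal and 6.91 in the other.

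Epithelial genes were high in both kinds of adenoma. Of 20 epithelial identity genes 4 were higher in T2 (20%, against 3.64% of all genes) and none was lower. Krt8, Krt18 and Krt19, keratins of simple epithelium, and Cdh1, E-cadherin, were between 11.56 and 12.32 in all 4 animals. Epcam, an epithelial adhesion protein, was 10.80 and 10.85 in T2 against 9.98 and 9.78, and did not pass (0.94 ± 0.33, adjusted p = 0.139). The 4 that passed were intestinal: Cdh17, the intestinal cadherin (11.14 and 11.11 against 6.34 and 6.50, 4.71 ± 0.13, adjusted p = 2.98e-09), the claudin Cldn3 (11.40 and 11.28 against 4.15 and 4.26), the brush border protocadherin Cdhr5 and Cdx2. Lgals4, an intestinal galectin, was 11.91 to 11.99 in all 4. Hnf4a, a further intestinal factor, was 10.29 and 10.27 against 9.48 and 9.63 (adjusted p = 0.115).

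Other intestinal transcription factors changed in both directions. Of 21, 3 were higher in T2 (14.29%, against 3.64% of all genes) and 4 were lower (19.05%, against 3.48%). Isx, the homeobox gene that limits vitamin A uptake, had 7.39 and 6.95 against 2.96 and 2.65 (4.37 ± 0.40), and Nr5a2, a nuclear receptor of crypt cells, was 1.34 ± 0.25 higher. Gata4, the factor of proximal small intestine that is also present in stomach, had 8.04 and 7.87 against 9.51 and 9.80 (-1.70 ± 0.24, adjusted p = 0.00111). Wild-type organoids had Gata4 at 9.68 and 9.84, near the other adenomas and above T2. Foxa1 (-0.78 ± 0.15) and Foxa2 (-0.66 ± 0.16), factors of all gut endoderm, and Tcf4, an E-protein distinct from the Wnt effector Tcf7l2 (-1.19 ± 0.17), were lower too. Of 26 Hox genes, which mark position along the body, 0 passed in limma and 0 had an unadjusted p under 0.05. Of 15 proximal small intestine genes 1 was higher and 3 were lower, and of 14 distal genes 1 was higher and 3 were lower. The single higher genes (6.67% and 7.14%) are near the 3.64% of all genes, and the lower ones are 20.0% and 21.4% against 3.48%.

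Absorptive enterocyte genes were low in all 4 animals compared with wild-type organoids. In T2, 5 of 24 were higher (20.8%, against 3.64% of all genes) and 2 lower (8.33%, against 3.48%). Sis, the sucrase-isomaltase of the brush border, was 2.95 and 2.91 against 2.46 and 2.10, with wild-type organoids at 12.47 in both animals. Its difference of 0.65 ± 0.15 passed (adjusted p = 0.024) but lay at the floor. Slc5a1, the sodium-glucose transporter, had 6.90 and 6.30 against 2.97 and 3.67 (3.28 ± 0.28), and Anpep, aminopeptidase N, had 5.03 and 5.73 against 8.90 and 9.16 (-3.65 ± 0.33). The groups were clearly apart for both genes, in opposite directions.

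Part of the Wnt feedback genes, which are induced by the pathway they restrain, were higher in T2. Of 16 tested genes 4 were higher in T2 (25%, against 3.64% of all genes) and none was lower, with a median of 0.35. With each adenoma group as 1 sample 2 were higher. Axin2, the standard readout of the pathway, had 10.06 in P21 and 9.84 in P23, against 8.06 in P34 and 7.55 in P36. All 4 animals exceeded wild-type organoids (5.16 and 5.37), and T2 exceeded the others by 2.14 ± 0.25 (adjusted p = 0.000278). A second, dimmer Axin2 probe set differed by 1.07. Nkd1, an inhibitor induced by the pathway, had 6.65 and 6.92 against 4.35 and 4.39 (2.42 ± 0.32), Sp5, a target transcription factor, was 1.99 ± 0.35 higher, and Rnf43, the ligase that removes Wnt receptors, was 1.27 ± 0.20 higher. Axin2 and Rnf43 both lie in the part of chromosome 11 that is described below. Lef1, a transcription factor of the pathway and itself a target, had 6.27 and 6.03 against 3.21 and 3.46. The groups did not overlap, but with an SE of 0.77 its difference of 2.82 just missed the threshold (adjusted p = 0.0505).

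Most of the targets that mark crypt progenitors did not pass, but 18.75% were higher, against 3.64% of all genes tested. Of 16 tested, 3 were higher in T2 and none was lower, with a median of 0.20. They were Mmp7, the receptor Tnfrsf19 (7.48 and 7.69 against 5.68 and 5.74, 1.88 ± 0.17) and the adhesion receptor Cd44 (10.76 and 10.69 against 9.73 and 9.60, 1.06 ± 0.23, adjusted p = 0.0141). Mmp7 is also counted in the Paneth list and Tnfrsf19 in the stem cell list below. Cd44 lost its call in 5 of 19 alternative settings, Mmp7 and Tnfrsf19 in 0. Myc, the growth regulator, was 10.91 and 10.71 against 10.37 and 10.13 (adjusted p = 0.459). Ccnd1, cyclin D1, was 10.96 to 11.27 in all 4 animals, and Ascl2, the stem cell factor, 8.26 to 8.65, against 7.52, 6.35 and 3.96 for Myc, Ccnd1 and Ascl2 in wild-type organoids. These 3 genes thus had levels above wild type in all 4 animals.

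The list of Lgr5 stem cell genes, which also holds markers of reserve stem cells such as Hopx, gave 7 higher of 21. This was 33.3%, against 3.64% of all genes, with a median difference of 0.56. The 1 lower (4.76%) is near the 3.48% of all genes. With each adenoma group as 1 sample 5 were higher and none was lower. Olfm4, a secreted stem cell marker, had 6.66 and 7.16 in T2 against 2.85 and 2.84, at the floor (4.06 ± 0.19, adjusted p = 1.69e-07). Clca3b (5.76 ± 0.33), Rnf32 (2.39 ± 0.28), Tert, the telomerase subunit (1.51 ± 0.20), Msi1, an RNA-binding protein (1.52 ± 0.37), and Hopx, a marker of reserve stem cells (1.39 ± 0.35), were higher as well. Lgr5 itself, the R-spondin receptor, depended on the probe set. The one used, which has the higher mean over all 14 samples, read 5.09 and 4.99 against 4.48 and 4.48 and did not pass (0.56 ± 0.24, adjusted p = 0.261). The other is brighter in the adenomas and read 7.65 and 7.14 against 5.48 and 5.34, a difference of 1.98. With the mean of both probe sets Lgr5 passed (1.27 ± 0.18, adjusted p = 0.000874), and 8 of the 21 genes were higher. Gkn3, a gastrokine also found in stomach glands, was lower in T2 (-0.86 ± 0.21, adjusted p = 0.0272).

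**Figure D4:**
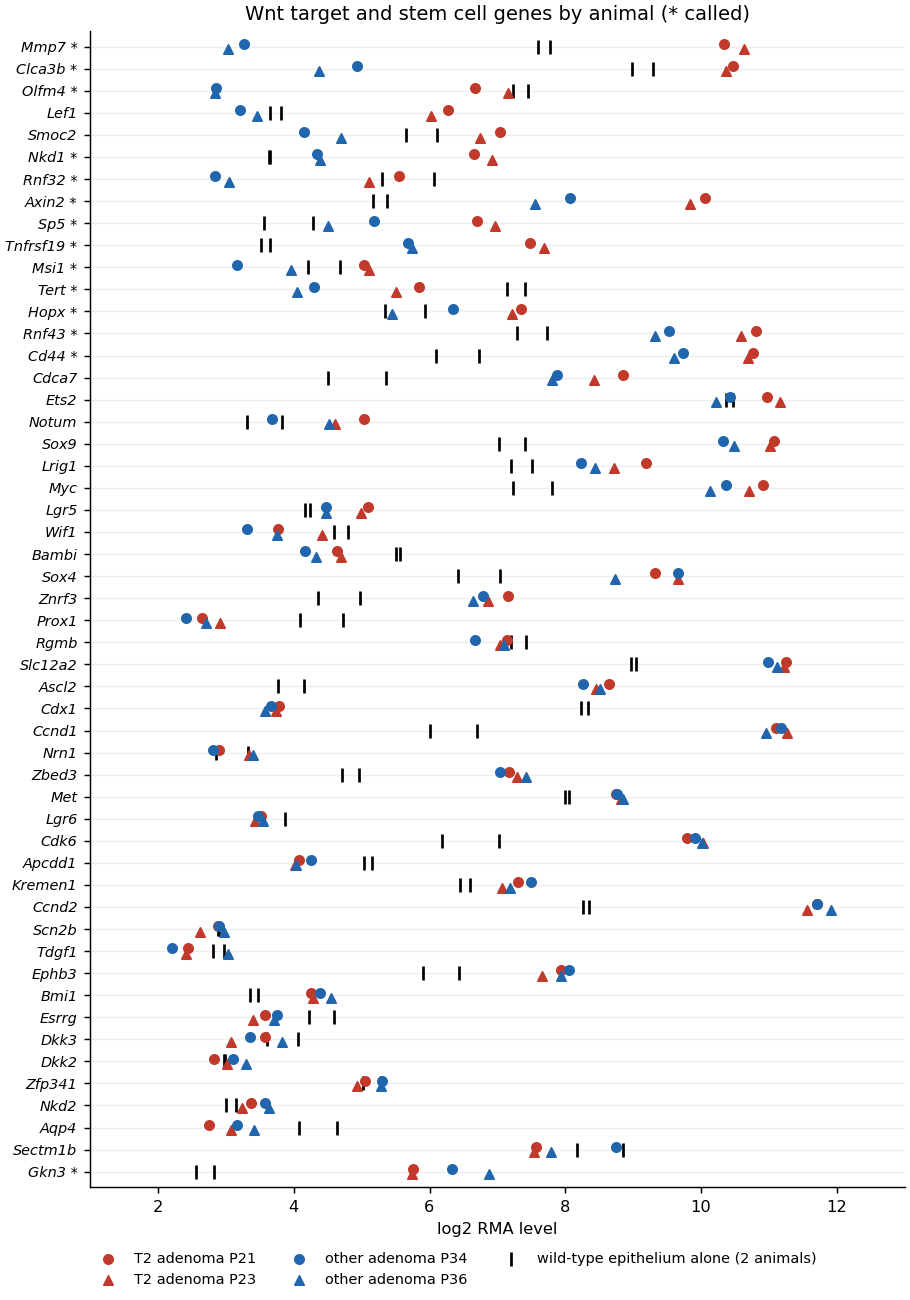
Log2 RMA level of all tested Wnt feedback, crypt progenitor and stem cell genes, ordered by the difference between adenoma groups, by animal (red for T2, blue for other adenomas) and in wild-type organoids grown alone (black bars, 2 animals), with called genes starred. Genes in the upper rows are separated between groups, Lgr5, by the probe set used, lies between 4.48 and 5.09 in the 4 adenoma animals, and Ccnd1 and Ascl2 lie above wild type in all 4 adenoma animals.

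Ligands and receptors of the pathway contributed 5 higher and 1 lower of 31. In the same limma fit of 14 samples in 6 groups, 8 of the 31 had an unadjusted p under 0.05. Wnt7b had 6.16 and 6.59 against 4.50 and 4.46 (1.89 ± 0.29), Wnt4 5.82 and 6.58 against 4.53 and 4.71 (1.58 ± 0.35), and Wnt10a was 1.18 ± 0.28 higher. The receptors Fzd7 (1.13 ± 0.18) and Fzd2 (0.92 ± 0.22) were higher and Fzd8 was lower (-1.01 ± 0.26). These calls depended on the setting: Wnt7b and Fzd7 lost theirs in 1 of 19 alternatives, Wnt4 in 4 and Fzd2 in 6. The 5 higher genes are 16.1% of this list, against 3.64% of all genes. The 1 lower gene (3.23%) is near the 3.48% of all genes. In the destruction complex and catenin list 1 of 18 was higher (5.56%, near the 3.64% of all genes) and 2 were lower (11.1%, against 3.48%). Ctnnbip1, which blocks beta-catenin from its partners, had 5.51 and 5.62 against 6.96 and 6.82 (-1.33 ± 0.15, adjusted p = 0.00021), and Bcl9, a beta-catenin coactivator, was 1.14 ± 0.19 higher. Apc, the gene mutated in all 4 animals, was 8.13 and 8.29 against 8.82 and 9.25 (-0.83 ± 0.20, adjusted p = 0.0267), with wild-type organoids at 8.41 and 8.29. The position of its probes with respect to the mutation is unknown here, so this level does not tell the mutant from the wild-type copy, and the call was lost in 5 of 19 alternative settings.

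Growth, signalling and inflammation genes added single strong differences. Dusp6, the feedback phosphatase of ERK, had 9.53 and 9.84 against 7.84 and 7.04 (2.24 ± 0.26), and 2 of 19 MAPK feedback genes (10.5%, against 3.64% of all genes) were higher and none lower. Of these, 1 passed with each adenoma group as 1 sample. The EGF family ligand Nrg1 had 3.90 and 4.35 against 7.23 and 6.78 (-2.88 ± 0.56). Its list had 2 of 14 lower (14.3%, against 3.48% of all genes). Tnf, an inflammatory cytokine, had 7.81 and 7.99 against 3.86 and 3.53 (4.20 ± 0.47), and the chemokine Ccl9 was 5.30 ± 0.29 higher. Ptgs2, the inducible cyclooxygenase, had 6.17 and 6.69 against 9.64 and 8.43 (-2.61 ± 0.39), and the cytokine Il18 was lower in T2 (-3.54 ± 0.45). In this list 4 of 35 genes were higher (11.4%, against 3.64% of all genes) and 3 lower (8.57%, against 3.48%). Of the 20 fetal and repair epithelium genes none was higher and 3 were lower (15%, against 3.48% of all genes). These were Anxa10 (-4.24 ± 0.36), Psca (-2.28 ± 0.24) and Ly6d (-1.85 ± 0.40). Anxa10 is also a member of the stomach list. Wild-type organoids had it at 9.36 and 10.61, above T2 (7.05 and 7.76) and below the other adenomas (11.59 and 11.69).

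Genes of proliferation were high in both groups. The DNA replication list averaged 8.93 to 9.23 and the mitosis list 9.38 to 9.48 over the 4 animals, against 5.94 and 6.21 in wild-type organoids. Of 23 replication genes and 23 mitosis genes 0 passed in limma and 0 had an unadjusted p under 0.05, and 1 replication gene passed when the adenoma animals were fitted alone. Of 18 cyclin kinase inhibitors and p53 targets 0 passed and 3 had an unadjusted p under 0.05 (3 passed in the adenoma animals alone). Of 15 cholesterol synthesis genes 0 passed and 0 had an unadjusted p under 0.05.

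Markers of other cells were low throughout. The 18 fibroblast genes averaged 3.19 and 3.26 in T2 and 3.51 and 3.30 in the other adenomas, against 10.2 in myofibroblasts. The 15 immune cell genes averaged 3.26 to 3.43 and the 10 endothelial genes 3.22 to 3.46. Of these 3 lists 1 gene passed, the proteoglycan Dcn at -0.78 ± 0.20, from levels at the floor (2.81 and 2.71 against 3.79 and 3.28). Col1a1, the fibroblast collagen, was 3.80 to 4.35 in all 4 animals (-0.23 ± 0.19, adjusted p = 0.705), and Vim, vimentin, 4.69 to 5.08 (0.07 ± 0.20, adjusted p = 0.971).

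Of 293 microRNA genes tested 1 passed, a smaller share than the 7.12% of all genes. Mir200b, whose product helps to hold the epithelial state by silencing Zeb1 and Zeb2, had 6.34 in P21 and 5.03 in P23, against 7.24 in P34 and 7.07 in P36 (-1.47 ± 0.36, adjusted p = 0.0303). Mir680-2 came next (adjusted p = 0.064, higher level in T2). The neighbour of Mir200b, Mir200a, had 5.16 and 3.88 against 6.01 and 5.37 (adjusted p = 0.0973). The groups did not overlap for these genes, but the T2 animals were uneven, and the probe sets read the precursor and not the mature RNA. Zeb1 was at the floor in all 4 animals (2.78 to 3.39). The mature 3p sequences from RefSeq are shown, with the seed that pairs with targets (bases 2 to 8) in capitals, because Mir200b was the 1 called and Mir200a is its neighbour.
miR-200b-3p: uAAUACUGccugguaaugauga
miR-200a-3p: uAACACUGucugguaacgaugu

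Differences also followed chromosomal position. Over all genes tested with a chromosome, 3.66% were called higher and 3.51% lower. On chromosome 11 (1457 genes) these shares were 8.65% and 1.58%, with a median difference of 0.10, and on chromosome 15 (755 genes) 8.34% and 2.12%, with a median of 0.20. On chromosome 19 (610 genes) they were 1.97% and 13.8% (median -0.28), and on chromosome 4 (1092 genes) 2.29% and 8.52% (median -0.07). Genes at the floor dilute such medians, and a restriction to brighter genes was added after seeing the data. It left 7838 genes with a mean level above 6 on 20 chromosomes, and the median of 16 of these chromosomes lay between -0.09 and 0.04. Each chromosome was divided into 8 blocks of equal gene number, and stretches on the other 4 chromosomes were chosen after the values were seen, so they are described without a test. On chromosome 4, the last 2 blocks (121 genes from Clic4 onwards) had a median of -0.71, with 61 genes called lower and 2 higher. On chromosome 11, the last 4 blocks (322 genes from Tlcd1 onwards) had a median of 0.45, with 80 called higher and 1 lower. The first 6 blocks of chromosome 4 and the first 4 of chromosome 11 had medians of -0.0047 and -0.02.

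All of chromosome 15 (344 genes) had a median of 0.39, with 51 called higher and 8 lower, and all of chromosome 19 (294 genes) had a median of -0.44, with 2 higher and 63 lower. Every one of their 8 blocks shared the direction. Over the bright genes of the 16 chromosomes the medians against wild-type organoids were 0.13 to 0.16 in the 4 animals, which is the level to read the stretches against. On distal chromosome 4 they were -0.69 in P21 and -0.65 in P23, against -0.04 in P34 and -0.08 in P36, and on distal chromosome 11 they were 0.50 and 0.49 against 0.03 and 0.02. On chromosome 19 they were 0.01 and 0.08 in T2 against 0.46 and 0.45 in the other adenomas, and on chromosome 15 they were 0.21 and 0.23 against -0.13 and -0.10. T2 adenomas thus lay farther from that level on chromosomes 4 and 11 and the other adenomas on chromosomes 15 and 19. Among the 16 chromosomes the median itself varied, from -0.02 (chromosome 7, P23) to 0.29 (chromosome X, P36). Single blocks on them ran from -0.58 (block 5 of chromosome 12, 34 genes, P21) to 0.84 (block 8 of chromosome X, 25 genes, P36). The distance of a stretch from the pooled level was not tested. Of the 4 stretches, the median difference between the 2 animals of a group was largest in size on chromosome 15 (-0.054, P34 minus P36). DNA was not measured.

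**Figure D5:**
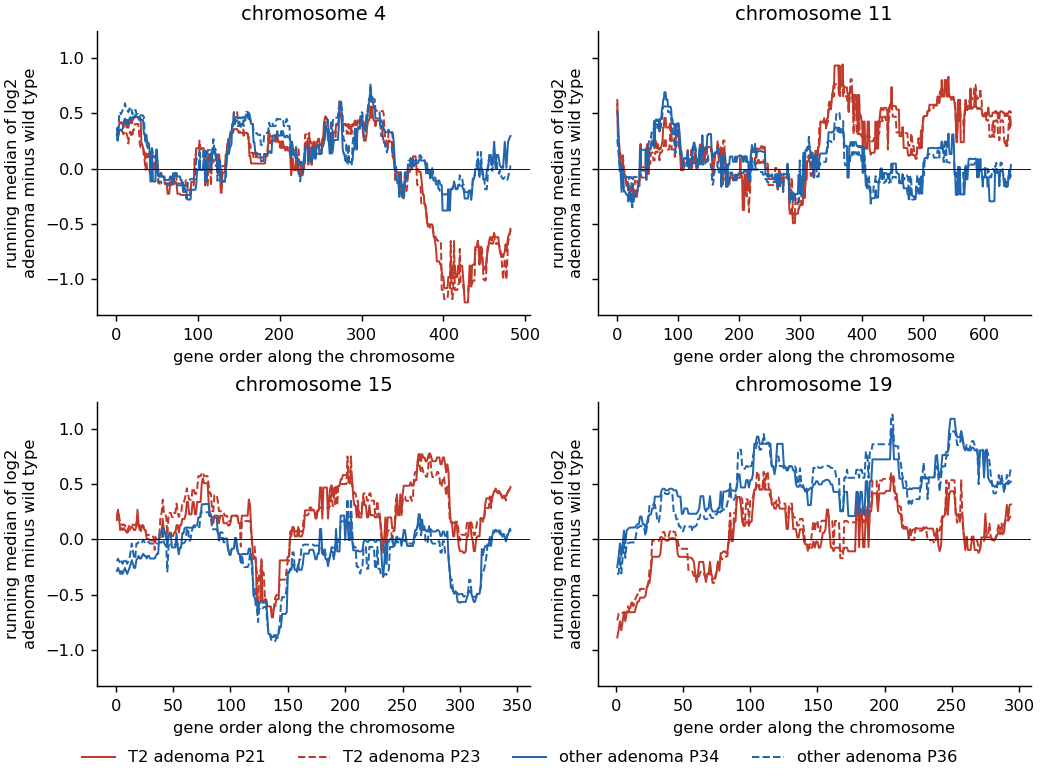
Running median over 31 genes (mean level above 6) of the log2 difference between each adenoma animal and the mean of wild-type organoids grown alone, in gene order along chromosomes 4, 11, 15 and 19. Red lines (T2 animals P21 and P23) and blue lines (other animals P34 and P36) lie together over the first part of chromosomes 4 and 11 and are apart over the remainder and over most of chromosomes 15 and 19.

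These stretches held 268 of the 1297 called genes, and 1029 lay elsewhere or were dimmer. On the other chromosomes, 128 blocks had medians between -0.30 and 0.31. Block 6 of chromosome 16 (30 genes from Cd80 to Tomm70a, 0.31, 5 called higher and 0 lower) and block 8 of chromosome X (25 genes, -0.30, 0 higher and 1 lower) were the extremes. They came near the weakest blocks within the stretches, 0.33 on chromosome 15 and -0.32 on chromosome 19. Of the genes described above, Axin2, Rnf43, Fzd2, B4galnt2, Ccl9 and Col1a1 lie in the stretch of chromosome 11, Ctnnbip1, Wnt4 and Mir200b in that of chromosome 4, and Wnt7b, Slc38a1, Psca and Ly6d on chromosome 15. The difference of Axin2 (2.14) was larger than the median of its stretch, and those of Psca, Ly6d and Wnt4 ran against theirs. Lyz1, the defensins, Muc2, Atoh1, Cdh17, Muc1, Cldn18, Muc5ac, Tff1, Sox2 and Cdx2 lie outside all 4 stretches.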

How the data were processed

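The authors deposited log2 levels per probe set, for which the submitters' processing notes name RMA without a version, and no array library or build is stated. Per the labels' protocols, 150 ng of RNA gave biotin-labelled target for 1-colour arrays. Of 41345 probe sets 23521 had 1 symbol in the platform annotation, 1814 several and 16010 none here. Each of 22180 genes was read from the probe set with the highest mean over all 14 samples and tested where a group mean exceeded the 30th percentile (2.67). Limma 3.58.1 (R 4.3.3) fitted 14 samples in 6 groups with 1 shared spread (8 residual degrees of freedom, 11.0 after moderation), which assumes that groups vary alike. Tests were 2-sided, with Benjamini-Hochberg adjustment across the 18223 genes. The functions were tested on simulated data.

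Members, the 44 gene lists (797 genes tested) and the alternatives were chosen with earlier results of these data known. Named genes are the 12 largest differences each way, per list at most 4 called members by smallest p, and Apc, Lgr5, Axin2, Epcam, Vim and Col1a1. Further list members are named for contrast. Nkx6-3, the microRNAs, the promoters and the chromosome stretches were chosen after their values were seen. Gene order is that of RefSeq GRCm38.p6. The source labels of P34's repeats name other array codes, and the titles were followed. Alternatives were other filters, normalisation, variance priors, probe set rules, thresholds, single arrays, fewer groups, blocks, and leaving out each animal.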

Additional observations from a re-analysis of the deposited data

How the results depend on the processing

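Calls depended on how many animals were counted. Leaving out 1 adenoma animal gave 343 to 413 genes higher and 342 to 425 lower (main 663 and 634), and entering each adenoma group as 1 sample, an alternative chosen after seeing the data, gave 213 and 195. A 2-fold minimum left 408 lower. With the animal of the paired organoid and myofibroblast cultures as a replicate block, 1082 genes were higher and 1087 lower, and 1294 of the 1297 were among them; no adenoma animals are paired. In the other alternatives 1228 to 1785 genes passed. Of 103 named genes called, 65 kept the call in all 19 alternatives and 38 lost it in at least 1. The difference of Vim changed sign with the second arrays only (-0.0023) and was -0.11 to 0.24 when each animal was left out, below 0 without P21 and without P36 (-0.08). Over 10 settings the median of the chromosome 4 stretch was -0.73 to -0.69, of chromosome 11 0.44 to 0.45, of chromosome 15 0.37 to 0.42 and of chromosome 19 -0.44 to -0.41. No detection calls were used, so differences between levels near 3 are limited by the array floor.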

Other observations

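The Y-linked genes Eif2s3y, Kdm5d and Uty were measured below the other adenomas in both T2 animals. Kdm5d was 5.47 and 5.44 against 6.79 and 6.87, Uty 5.88 and 5.21 against 6.91 and 7.04, and Eif2s3y 7.59 and 7.37 against 8.31 and 8.46, while Xist was 2.17 to 2.44 in all 4. None passed in limma over all groups (adjusted p = 0.879, 0.885 and 0.965), where the cultures of P28 and Pl_III, which hold these genes at the floor, widened the spread. Without those cultures, a setting listed among the alternatives, all 3 passed (adjusted p = 0.00268, 0.00602 and 0.00818), as they did among the adenoma animals alone (0.00185, 0.0137 and 0.015).

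Several small RNA genes were lower in the animals with 1 array than in those with 2. Scarna6 was 7.38 in P21 and 7.01 in P34, against 4.90 in P23 and 4.73 in P36, and n-R5s136 was 6.45 and 6.62 against 4.49 and 4.32. Snora74a was 8.38 and 8.33 against 6.51 and 7.09. These levels followed the animals across both groups, and they were not tested.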
